A study of Mus musculus with 16 samples.

Results

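The nuclear genes of oxidative phosphorylation (OXPHOS) were followed in C.B17 mouse follicular B cells, the resting mature B cells that recirculate through the follicles. Members were taken by gene name on the array: the Nduf subunits of the A, B, C, S and V series, Sdha to Sdhd, and names starting with Uqcr, with Cox4 to Cox8 or with Atp5, leaving out the assembly factors. The rule matched 80 genes with 108 probes, and 78 of them were among the 20456 genes tested. They comprised 35 genes of complex I, 4 of complex II, 7 of complex III, 16 of the 18 matched for complex IV, and 16 of complex V. Cox8b and Cox8c, forms of the smallest cytochrome oxidase subunit known from muscle and testis, were well above background on 2 of 16 arrays each and were left out. All other members except Cox4i2 were well above background on 16 of 16 arrays. Each gene is represented by its brightest probe. Cox4nb (now Emc8, a membrane protein insertion factor) and Atp5s (now Dmac2l) are carried by their old names and are not subunits of these complexes. Atp5f1 is now named Atp5pb, and Uqcr is now Uqcr11.

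There were 8 biological samples in 5 groups, each hybridised on 2 dual-colour Agilent arrays with the dyes exchanged, against RNA pooled from 6 cell lines (EL4, DN3, P388d, J558, R1 and RS2). Auto.Neg (n = 2, ATAμκTg) had a transgenic VH3609μ/Vk21-5κ receptor directed at Thy-1, an antigen of thymocytes, on a Thy-1 knockout background, and is labelled autoreactive negative. Auto.Pos (n = 2, AGcAμκTg) had a transgenic VH3609μ/Vk19-17κ receptor directed at intestinal goblet cells and is labelled autoreactive positive; a separate label field writes this light chain as Vkappa17-17kappa. WT mice (n = 2) were wild type. Non-edited and Edited (n = 1 each) were Thy-1 knockout cells with the genotype VH3609t +/- x Vk21-5Tg +/-; editing is the exchange of a receptor chain by renewed gene rearrangement. Ages, sorting gates and transgene promoters were not stated in the sources used here. Whether both samples of a group are of separate mice is not stated. The p-values rest on the spread between those 2, which may be technical and which includes the scanner protocol difference described below. Each value below is a log2 ratio of sample over reference (log2 ratio), with the 2 arrays averaged. Of the 624 member values (78 genes in 8 samples), 5 rest on 1 array, since the other spot was flagged as an outlier: WT sample 1 of Cox4i1, Auto.Pos sample 2 of Atp5b, Cox5a and Uqcrh, and Auto.Neg sample 1 of Ndufs1. In each of these the sample carried Cy5. It compares a single probe between 2 RNAs and does not rank genes by their amount of RNA. In bulk RNA, fewer cells of a type and less RNA per cell cannot be told apart.

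The file headers divide the arrays by scanner software protocol, 91 or 95, and by slide and scan day. Auto.Neg sample 2, Auto.Pos sample 1 and WT sample 1 were read with protocol 91, and the other 5 samples with protocol 95. Slide 2 held both Auto.Neg sample 2 and Auto.Pos sample 1, and scan day 3 covered the second samples of Auto.Pos and WT. Scan day 2 covered the pair on slide 2, and scan day 4 Auto.Neg sample 1, Non-edited and Edited. WT sample 1 was alone on scan day 1. Over the 78 members, the log2 ratios of 2 samples of equal protocol correlated across genes at 0.900 to 0.989, and those of unequal protocol at 0.729 to 0.823. The 2 samples of a group, always of unequal protocol, correlated at 0.747 in Auto.Neg, 0.778 in Auto.Pos and 0.822 in WT, against 0.903, 0.904 and 0.924 over all genes. Genes are not independent replicates, and all samples share the reference. Each comparison below is therefore also given within each protocol. Unless stated, groups were compared with 1 mean per group and no protocol term, so few calls do not show that groups are alike. The markers of B cell identity (6 genes) read a median of 3.45 to 5.39 over the reference in every sample, and those of follicular B cells (5 measured) 5.74 to 6.84. Those of T cells (6 measured) read a median of -3.59 to -2.86. Of these, Cd4 read -0.0096 to 0.34 and Cd3e -0.79 to -0.22, while Cd3d, Cd3g, Cd8a and Lat read lower. A kappa light chain transcript (ENSMUST00000089814) was highest in the samples with the Vk21-5 transgene (Auto.Neg 6.69 and 7.24, Non-edited 6.95, Edited 5.995), lower in WT (4.14 and 3.67) and lowest in Auto.Pos (-0.50 and -0.24), whose transgene is another.

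Oxidative phosphorylation takes place at the inner mitochondrial membrane. Complex I accepts electrons from NADH and complex II, also the succinate dehydrogenase of the citric acid cycle, from succinate; both pass them through ubiquinone to complex III, and cytochrome c carries them to complex IV, which reduces oxygen. Complexes I, III and IV pump protons, and the ATP synthase, complex V, makes ATP as the protons return. Most subunits are encoded in the nucleus and imported, and the remainder come from mitochondrial DNA. Resting B cells are small cells with few mitochondria, and activated B cells raise their mitochondrial mass and respiration.

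The sequences below are those of the genes with some of the widest spread between samples. Upstream of many OXPHOS genes lie motifs of NRF-1, of the ETS factor GABP (NRF-2) and of YY1. RefSeq promoters (GRCm38.p6, 250 bases before to 50 after each start) were matched for 64 of the 78 members, giving 69 promoters. The motif GCNTGCGC, the core of what NRF-1 binds, was found on either strand in 25 of 69 (36.2%), against 3270 of 32851 promoters (9.95%) of all genes. CCGGAAG of the ETS family was in 23.2% against 8.86%, AAGATGGCG of YY1 in 10.1% against 1.4%, and TATAAA in 8.7% against 13.6%; in the member promoters no matches to different motifs overlapped. The last 100 bases before the start are shown for 4 genes, with matches to GCNTGCGC on either strand in capitals.
Ndufa11 (chr17:56717662-56717761, plus strand): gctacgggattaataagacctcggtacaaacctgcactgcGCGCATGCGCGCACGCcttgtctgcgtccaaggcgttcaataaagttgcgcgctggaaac
Ndufa8 (chr2:36049339-36049438, minus strand): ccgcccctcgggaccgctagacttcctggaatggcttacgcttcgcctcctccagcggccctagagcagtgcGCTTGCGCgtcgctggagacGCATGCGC
Atp5k (chr5:108434400-108434499, minus strand): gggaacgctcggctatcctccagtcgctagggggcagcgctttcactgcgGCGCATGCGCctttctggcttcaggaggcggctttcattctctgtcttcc
Sdha (chr13:74350241-74350340, minus strand): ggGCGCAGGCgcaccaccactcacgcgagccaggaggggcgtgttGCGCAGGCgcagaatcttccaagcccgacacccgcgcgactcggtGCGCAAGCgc
Counting overlapping matches as 1 stretch, Ndufa11 and Atp5k hold 1 in this window, Ndufa8 holds 2 and Sdha 3.

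The array reads each gene through a probe of 60 bases. The first 30 bases are shown for 2 probes rich in G and C and for 2 poor in them, with G and C in capitals and coordinates in mm7 as the files give them.
Ndufa11 (chr17:54928975-54929034, plus strand): GGCCGaGCaaGCCCaGCtaGGtatGGCGat
Atp5k (chr5:107614717-107614972, minus strand): CGGCGCCaaGCGCtaCaGttaCCtaaaaCC
Ndufa8 (chr2:36043662-36043721, minus strand): atCaCaGaCattaaCaaaaaaGttaattta
Cox7c (chr13:83112800-83113677, minus strand): aaataaGGatatttaattCatCCCtttaaC
Over their whole length, G and C make up 53.3% of the Ndufa11 probe and 60% of the Atp5k probe, against 28.3% of the Ndufa8 and Cox7c probes. The median over the members is 45%, and over all genes 43.3%.

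OXPHOS genes lay below the cell line reference in every sample. The member median was -0.65 and -1.09 (Auto.Neg), -1.01 and -0.75 (Auto.Pos), -1.05 and -0.80 (WT), -0.77 (Non-edited) and -0.74 (Edited), while the median of all genes was 0.036 to 0.15. In single samples 58 to 69 of the 78 members were below 0. Below 0 in all 8 samples were 51 members (65.4%), against 28.4% of all genes, and above 0 in all 8 were 6 (7.69%), against 34.5%. The share below 0 in all samples was 21 of 35 for complex I, 3 of 4 for complex II, 5 of 7 for complex III, 12 of 16 for complex IV and 10 of 16 for complex V. The 6 above 0 in all samples were Atp5e, Cox6b2, Cox7a2l, Ndufb10, Ndufb11 and Uqcrh. For Uqcrh this held at the probe used but not at its other probe. All 8 samples share the reference, so these counts describe follicular B cells against that mixture of lines.

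**Figure D1:**
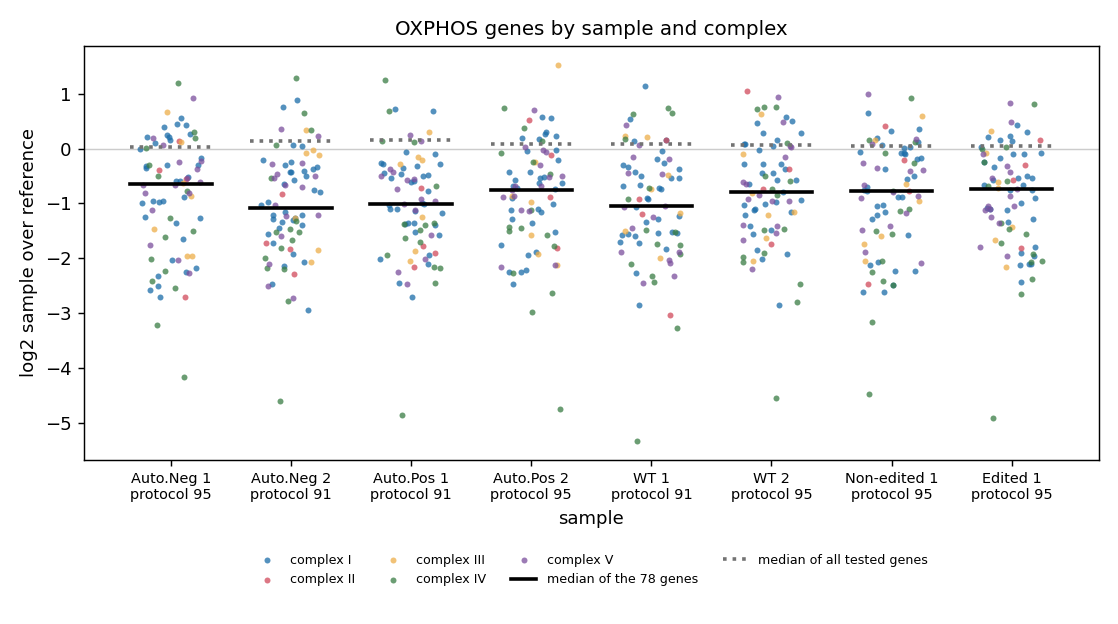
Each point is 1 of the 78 OXPHOS genes in 1 sample, coloured by complex; the y axis is the log2 ratio of sample over reference, the black line the median of the members (-1.09 to -0.65) and the dotted line the median of all tested genes. The member median lies below the median of all genes in each of the 8 samples, and the 3 lowest member medians are those of the protocol 91 samples.

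In complex I, the median log2 ratio over its 35 genes was -0.58 and -0.97 (Auto.Neg), -0.9968 and -0.68 (Auto.Pos), -0.74 and -0.57 (WT), -0.70 (Non-edited) and -0.65 (Edited). Among its core subunits, Ndufv1, which binds NADH and flavin, ranged over the 8 samples from -0.68 to -0.27, and Ndufv2, an iron-sulphur subunit of the same module, from -1.53 to -0.74. Ndufs1, the largest iron-sulphur subunit, ranged from -1.15 to -0.59, and Ndufs8, with a pair of iron-sulphur clusters, from -0.49 to 0.56. Ndufs7, at the ubiquinone site, ranged from -0.67 to -0.28, and Ndufs3, in the same arm, from -0.76 to 0.065. Of these 6, Ndufs8 and Ndufs3 crossed 0 between samples and the other 4 stayed below it. The accessory subunits Ndufb10 (0.44 to 0.76) and Ndufb11 (0.13 to 1.14) were above the reference in every sample, and Ndufb6 (-2.62 to -2.02), Ndufa4 (-2.86 to -1.83) and Ndufc2 (-2.95 to -1.49) were the lowest of the complex by mean. Ndufa4 keeps its complex I name here but is now counted with complex IV.

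The 4 genes of complex II did not share a level. Sdha, the flavoprotein that oxidises succinate, read 0.14 and -0.83 (Auto.Neg), -0.71 and 0.53 (Auto.Pos), 0.16 and 1.05 (WT), 0.41 (Non-edited) and 0.15 (Edited). Sdhb, the iron-sulphur subunit, read -0.38 and -1.83 (Auto.Neg), -1.90 and -0.12 (Auto.Pos), -0.92 and -0.36 (WT), -0.20 (Non-edited) and -0.30 (Edited). Both were lowest in Auto.Neg sample 2 and Auto.Pos sample 1, the pair on slide 2. Sdhc, a membrane anchor, ranged from -1.78 to -0.55, with the same 2 samples lowest. Sdhd, the other anchor, read -2.70 and -2.29 (Auto.Neg), -2.16 and -1.81 (Auto.Pos), -3.04 and -1.74 (WT), -2.46 (Non-edited) and -1.82 (Edited); its samples overlapped between protocols, and WT held both the lowest and the highest value. A second Sdha probe ranged from -1.32 to 0.28. A probe that the files name 1500032O14Rik, now annotated as Sdha, read 2.62 to 4.56, so the probes of this gene did not give 1 level.

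In complex III, Uqcrh, the hinge protein that helps cytochrome c dock, was above the reference in all 8 samples at the probe used (0.20 to 1.53). The 1.53 of Auto.Pos sample 2 rests on 1 array. Its other probe read -0.22 (Auto.Neg sample 2), -0.23 (Auto.Pos sample 1) and -0.25 (WT sample 1), and above 0 in the other samples. The core proteins Uqcrc1 and Uqcrc2 ranged from -0.29 to 0.24 and from -0.87 to -0.11. Uqcrfs1, the Rieske iron-sulphur protein, ranged from -1.16 to -0.026, with Auto.Neg sample 2 and Auto.Pos sample 1 highest. The small subunits Uqcr, Uqcrb and Uqcrq were below -1 in every sample at the probes used, with means over 8 samples of -1.55, -1.64 and -2.003. A second Uqcrq probe read higher, from -1.14 to 0.095.

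Complex IV had the lowest complex median in 5 of 8 samples, at -1.38 and -1.51 (Auto.Neg), -1.44 and -1.44 (Auto.Pos), -1.63 and -1.16 (WT), -1.32 (Non-edited) and -1.50 (Edited). Several of its subunits exist in tissue-specific forms. Cox4i1, the general form of subunit 4, ranged from -0.24 to 0.75; Cox4i2, the form known from lung, ranged from -0.0021 to 0.17 but was well above background on 10 of 16 arrays only, so its ratio lies near the floor of the array. Cox6a1, the general form, had a mean of -0.69, and Cox6a2, the heart and skeletal muscle form, had the lowest mean of all members at -4.70 (-5.33 to -4.16). Cox7a1, the muscle form of subunit 7a, averaged -2.62, the general form Cox7a2 -1.86, and Cox7a2l, which joins complexes III and IV into supercomplexes, had the highest mean of all members at 0.80 (0.65 to 1.19). Cox6b1, the general form, averaged -0.96 and the testis form Cox6b2 0.60, with Auto.Neg sample 2 (1.28) and Auto.Pos sample 1 (1.25) highest. Cox6c averaged -2.70, Cox7b -2.15 and Cox8a -1.15. Cox7b2 was not analysed here. Cox4nb, which is not a subunit, ranged from -1.75 to -1.35.

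In complex V, the catalytic subunits Atp5a1 and Atp5b and the central stalk subunit Atp5c1 ranged from -0.74 to 0.49, from -1.54 to -0.52 and from -0.73 to 0.36. Atp5e, the epsilon subunit of the stalk, was above the reference in all samples (0.22 to 0.9972; mean 0.66). Atp5g1, Atp5g2 and Atp5g3 encode the same subunit c of the rotor and differ in their import sequences. Atp5g2 ranged from -1.06 to -0.25 and Atp5g3 from -2.20 to -1.58. Atp5g1 ranged from -2.10 to -0.61, with the 3 protocol 91 samples at -2.10, -2.01 and -1.88 and the other 5 at -0.95 or higher. The membrane subunits Atp5l (g) and Atp5k (e), which help dimers form, had spans over the 8 samples of 2.52 and 1.84, among the widest of the 78. The median span was 0.88 for the members and 0.92 for all genes, and the narrowest were those of Cox4i2 (0.17), Ndufa12 (0.32), Ndufb10 (0.32) and Ndufs7 (0.39). Another Ndufa12 probe ranged more widely, from -2.32 to -0.43.

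**Figure D2:**
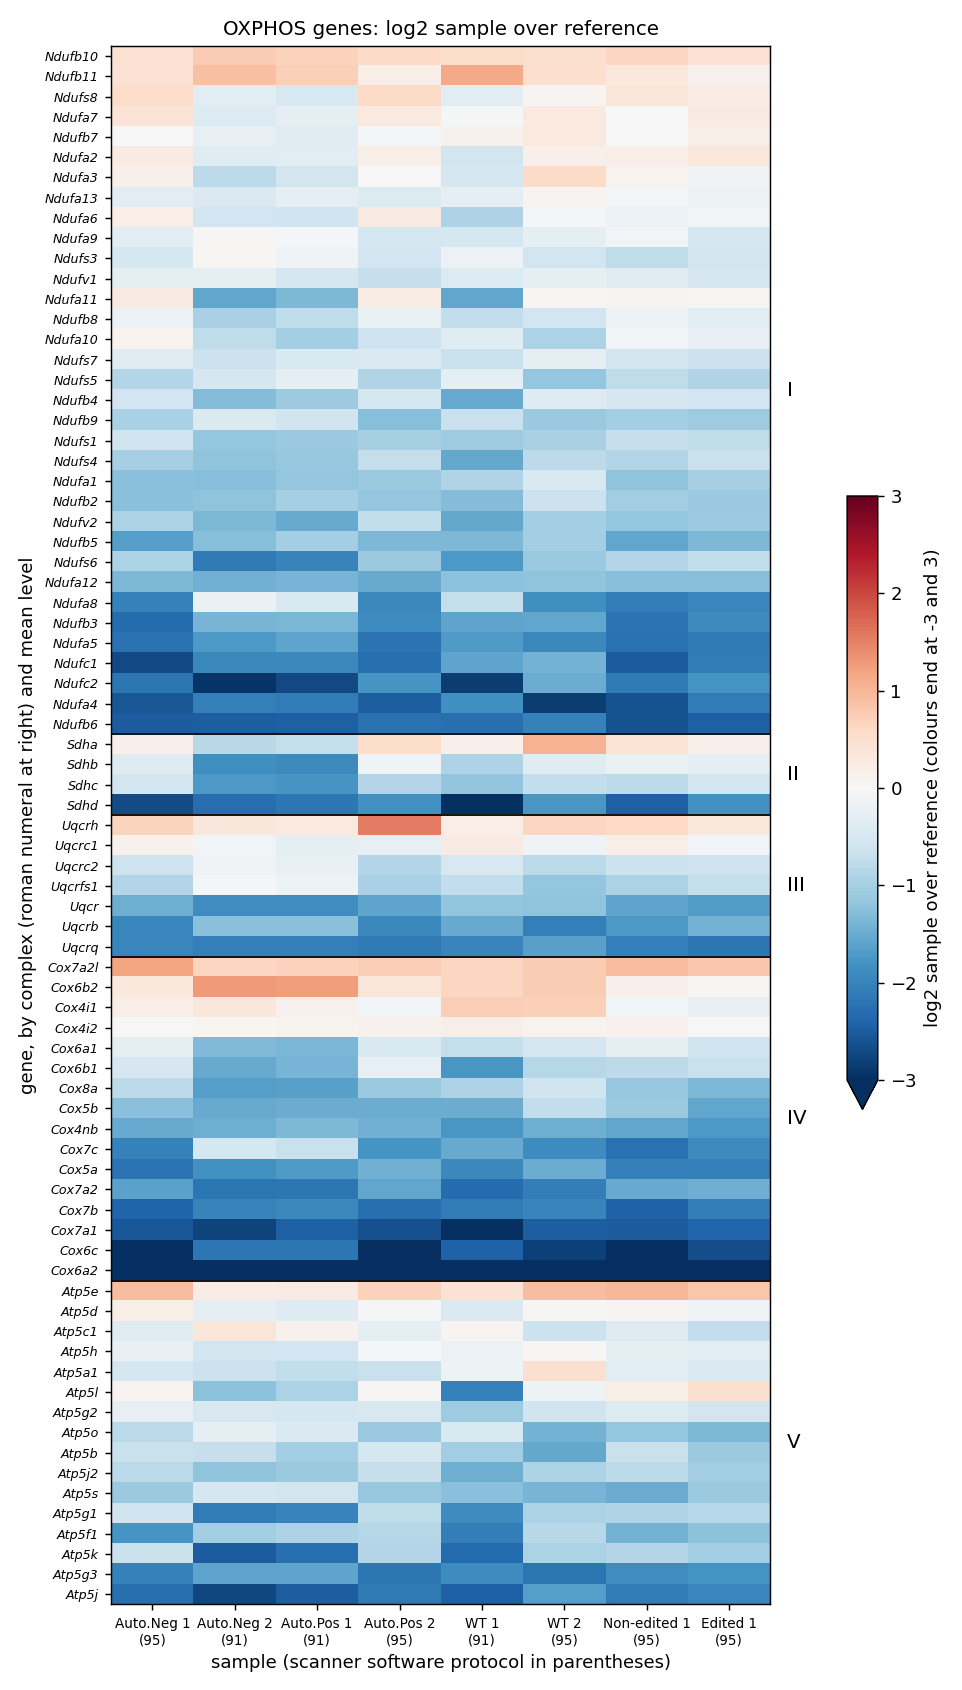
The heat map gives the log2 ratio of sample over reference for 77 of the 78 OXPHOS genes (rows, grouped by complex and ordered by mean) in the 8 samples (columns, with the scanner protocol in parentheses); blue is below and red above the reference, and colours end at -3 and 3. Most rows are blue throughout, and in rows such as Ndufa11, Ndufa8, Sdhb and Atp5k the 3 columns of protocol 91 differ from the other 5.

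Auto.Pos was compared with Auto.Neg to set B cells labelled autoreactive positive against B cells whose receptor target, Thy-1, was knocked out. The 2 groups differed little in OXPHOS genes: the median difference (Auto.Pos minus Auto.Neg, log2) was 0.020 over the members and 0.017 over all genes, and the median size of a difference was 0.111 against 0.139. No member was called at a limma adjusted p under 0.05 (lowest 1.00), where 3 of 20456 genes were called (0.0147%). At an unadjusted p under 0.05 there were 0 members and 212 genes (1.04%). The Auto.Pos samples were both above the Auto.Neg samples in 8 members (10.3%; all genes 11.1%) and both below in 6 (7.69%; all genes 8.18%), shares near those of all genes. By complex, the median difference was 0.023 for I, 0.17 for II, -0.085 for III, 0.042 for IV and -0.047 for V.

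Of the members without overlap between Auto.Pos and Auto.Neg, those with the highest differences were Atp5f1, Sdhd and Cox5a. Atp5f1, the b subunit of the ATP synthase stator, read -1.76 and -1.03 (Auto.Neg) and -0.92 and -0.86 (Auto.Pos), a difference of 0.51 (SE 0.483, limma adjusted p = 1.00). Its other probes differed by 0.25 and 0.20, and at both the groups overlapped. Sdhd, whose values are given above, differed by 0.51 (SE 0.472, limma adjusted p = 1.00). Cox5a, a subunit on the matrix side of complex IV, read -2.22 and -1.82 (Auto.Neg) and -1.70 and -1.43 (Auto.Pos), a difference of 0.45 (SE 0.269, limma adjusted p = 1.00), while its second probe differed by -0.80 and read 0.32 to 3.20. The sign of the Cox5a difference thus differed between its probes. Its Auto.Pos sample 2 rests on 1 array, and with the samples in Cy5 alone the difference was 0.089, against 0.11 within protocol 91 and 0.79 within protocol 95 from all arrays. The lowest were Cox6a2, Ndufv1 and Uqcrc1. Cox6a2 read -4.16 and -4.60 (Auto.Neg) and -4.86 and -4.74 (Auto.Pos), a difference of -0.42 (SE 0.332, limma adjusted p = 1.00). Ndufv1 differed by -0.29 (SE 0.189, limma adjusted p = 1.00) and Uqcrc1 by -0.28 (SE 0.213, limma adjusted p = 1.00). At the second Uqcrc1 probe, with a difference of -0.25, the groups overlapped. Within slide 2, which is also the protocol 91 pair, the member median was 0.015, and within protocol 95 it was -0.030; Atp5f1 differed there by 0.12 and 0.90, and Sdhd by 0.13 and 0.89.

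Auto.Pos was compared with WT to set B cells labelled autoreactive positive against wild type. No member was called in the fit with 1 mean per group (lowest limma adjusted p = 0.638), as was no gene of 20456 (0%); at an unadjusted p under 0.05 there were 2 members and 1152 genes (5.63%). The member median was 0.031, against 0.065 over all genes. Both Auto.Pos samples lay below both WT samples in 13 members (16.7%; all genes 10.4%) and above them in 5 (6.41%; all genes 19.2%). Complex II had a median difference of -0.37, complex I -0.040, complex III 0.10, complex IV 0.075 and complex V 0.17. For complex II it was -0.73 within protocol 91 and -0.11 within protocol 95, and Sdhb differed there by -0.98 and 0.24.

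The members below WT came from complexes I, III, IV and V. Atp5a1, the alpha subunit of the catalytic head of ATP synthase, read -0.74 and -0.68 (Auto.Pos) and -0.16 and 0.49 (WT). Both Auto.Pos samples were lower, by -0.87 (SE 0.271, limma adjusted p = 0.742), and a second probe differed by -0.37. Cox4i1 read 0.14 and -0.085 (Auto.Pos) and 0.75 and 0.72 (WT), a difference of -0.71 (SE 0.193, limma adjusted p = 0.638). Its WT sample 1 rests on 1 array, and the 2 arrays of the other samples differed by 0.31 to 1.88. With the samples in Cy5 alone, Cox4i1 read 0.78 and 0.57 (Auto.Pos) and 0.75 and 1.66 (WT), so the groups overlapped, at a difference of -0.53. Also below were Cox8a, Ndufc1, Uqcr, Ndufa1, Ndufb7, Cox5b, Uqcrc1, Uqcrq, Ndufa12 and Ndufv1, with differences of -0.62 to -0.24. For Uqcrq a second probe differed by 0.73, and the other probes of Ndufa12 by 0.51 and 0.19. The probes of Uqcrq and Ndufa12 thus disagreed in sign. Second probes of Ndufc1 (-0.94), Ndufa1 (-0.51) and Uqcrc1 (-0.32) kept the sign, but at those of Ndufa1 and Uqcrc1 the groups overlapped. The highest were all of complex V by name. Atp5b, the catalytic beta subunit, read -1.01 and -0.52 (Auto.Pos) and -1.04 and -1.54 (WT), a difference of 0.53 (SE 0.28, limma adjusted p = 1.00), but its 2 other probes differed by -0.90 and -0.34. The probes of Atp5b thus disagreed in sign. Its Auto.Pos sample 2 rests on 1 array, while the 2 arrays of the other samples differed by 0.71 to 2.40, and with the samples in Cy5 alone the sign turned, to -0.39. Atp5s, not a subunit, differed by 0.48 (SE 0.32, limma adjusted p = 1.00), with -0.0076 at its second probe, and Atp5g2 by 0.34 (SE 0.236, limma adjusted p = 1.00). A second Atp5g2 probe differed by 0.13, and there the groups overlapped.

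The comparison of Auto.Pos with WT changed when scan day entered the fit as a random block, a setting chosen after seeing the data. With the block, whose estimated correlation was 0.918, 13 members were called (16.7%), against 4183 of 20450 genes (20.5%), so OXPHOS genes were not called more often than others. Over all genes 2453 of those called were higher in Auto.Pos and 1730 lower, whereas more members fell than rose. The 10 that fell in Auto.Pos were Atp5a1, Ndufc1, Cox4i1, Cox5b, Ndufa1, Uqcrq, Ndufa13, Ndufv1, Uqcr and Ndufb7, and the 3 that rose were Atp5b, Uqcrh and Cox7a2. Of these 13, Cox4i1, Atp5b and Uqcrh include a value from 1 array. Uqcrq has a second probe that gave the other sign without the block. From all arrays Atp5b differed by 0.034 within protocol 91 and 1.02 within protocol 95, and Uqcrh by 0.092 and 0.89; with the samples in Cy5 alone, Uqcrh differed by 0.083. In that fit Atp5a1 differed by -1.11 (limma adjusted p = 0.00731), Cox4i1 by -0.79 (limma adjusted p = 0.00634) and Atp5b by 0.93 (limma adjusted p = 0.0164). The block draws on the samples that shared scan day 2, 3 or 4. Scan day 3 held Auto.Pos and WT samples, between which the member median was -0.065. Within protocol 91 it was 0.064. With the block, no member was called between Auto.Pos and Auto.Neg (39 genes, 0.191%) or between Auto.Neg and WT (464 genes, 2.27%; lowest member limma adjusted p = 0.0514).

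Auto.Neg was compared with WT to set transgenic B cells without Thy-1 against wild type. It shares its WT samples with the comparison before it, so the differences are not independent. No member was called (lowest limma adjusted p = 1.00), and no gene (0%); at an unadjusted p under 0.05 there were 2 members, Atp5a1 and Ndufa1, and 940 genes (4.6%). The member median was 0.035, against 0.044 over all genes. Both Auto.Neg samples lay below both WT samples in 12 members (15.4%; all genes 9.56%) and above in 3 (3.85%; all genes 15.4%). Sdha differed by -0.95 (SE 0.591, limma adjusted p = 1.00), with -0.28 at its second probe. Ndufc1, a small membrane subunit of complex I, read -2.70 and -1.92 (Auto.Neg) and -1.59 and -1.41 (WT), a difference of -0.81 (SE 0.321, limma adjusted p = 1.00). Atp5a1 read -0.53 and -0.65 (Auto.Neg) and differed by -0.76 (SE 0.271, limma adjusted p = 1.00), with -0.20 at its second probe. The highest of those without overlap were again Atp5b (0.61), Atp5s (0.52) and Atp5g2 (0.48). The other probes differed by -0.21 and 0.21 for Atp5b, 0.13 for Atp5s and 0.32 for Atp5g2, and at each of them the groups overlapped. With the samples in Cy5 alone, Atp5b differed by 0.16, again with overlap. Complex II had a median of -0.32 and complex V of 0.17, and the other 3 lay between 0.0042 and 0.081. The complex II median was -0.73 within protocol 91 and -0.46 within protocol 95. Within protocol 91 the member median was 0.048, and within protocol 95 it was -0.018.

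WT stood above all 6 other samples, the single Non-edited and Edited samples included, in 6 members (7.69%; all genes 3.83%) and below them in 1 (1.28%; all genes 5.82%). Those above were Atp5a1, Cox4i1, Ndufa1, Ndufa12, Ndufc1 and Uqcr. At another Ndufa12 probe WT was lowest, at -2.26 and -1.73, and at the remaining probe it overlapped the rest, at -2.18 and -0.88. Ndufa1, a small X-linked subunit needed to assemble complex I, read -0.90 and -0.45 (WT), -1.25 and -1.28 (Auto.Neg), -1.17 and -1.11 (Auto.Pos), -1.21 (Non-edited) and -0.99 (Edited). At its second probe WT sample 1 (-1.15) lay below Auto.Pos sample 2 (-0.80) and Edited (-1.04). Cox4i1 read 0.75 and 0.72 (WT) and at most 0.34 elsewhere, but with the samples in Cy5 alone WT sample 1 (0.75) lay below Auto.Pos sample 1 (0.78) and Auto.Neg sample 2 (0.90). The probe used for Cox4i1 lies at chr8:119308998-119309057 and that for Ndufa1 at chrX:31947395-31947454 (mm7). Atp5g2 was the member below, at -1.06 and -0.61 (WT) and -0.54 or higher elsewhere. At its second probe WT read -1.08 and -0.27 and overlapped the rest, such as Auto.Pos sample 1 (-0.98) and Auto.Neg sample 2 (-0.86). WT is the single group without a transgenic receptor, and the receptor and the mouse line cannot be told apart here.

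**Figure D3:**
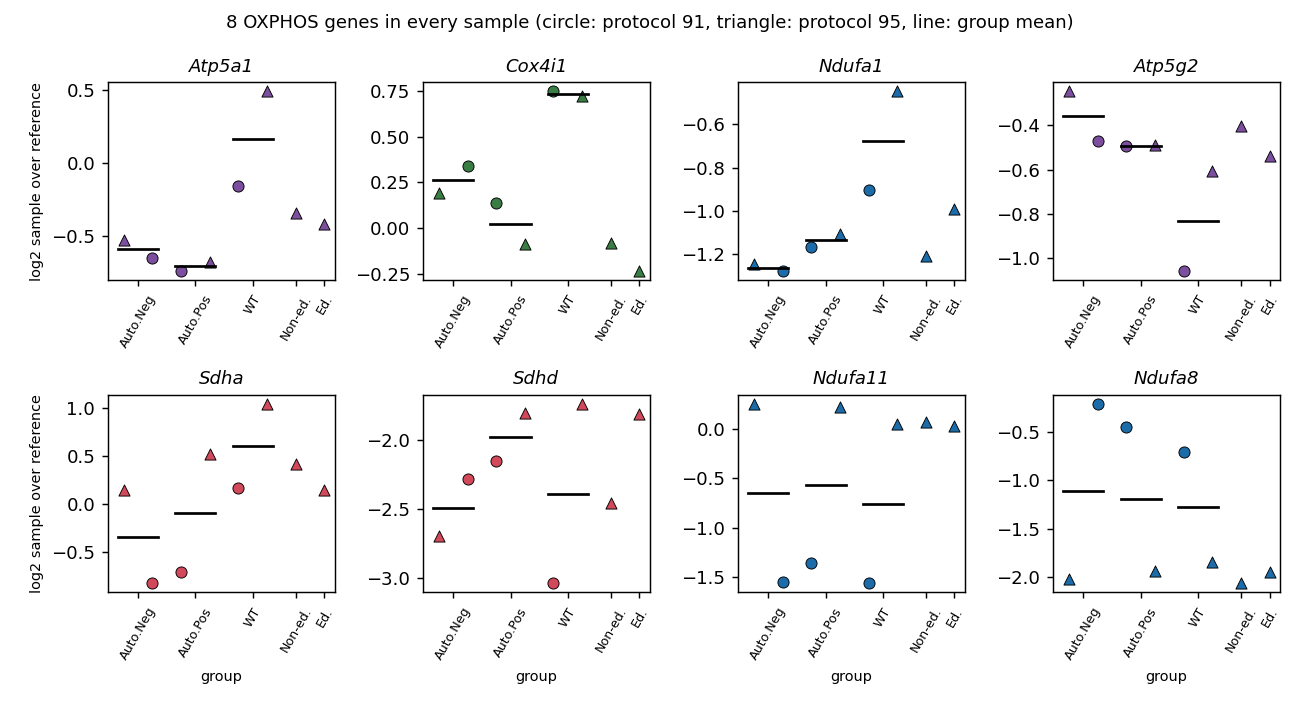
The log2 ratio of sample over reference is shown for 8 OXPHOS genes in every sample, by group; circles are samples of scanner protocol 91, triangles of protocol 95, and lines the means of groups of 2 samples (each panel has its own y axis). At the probes shown, the WT samples are highest for Atp5a1, Cox4i1 (WT sample 1 from 1 array) and Ndufa1 and lowest for Atp5g2. At the second probes of Ndufa1 and Atp5g2, WT overlaps the other samples. Ndufa11 and Ndufa8 separate by protocol in each of the 3 replicated groups.

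Edited and Non-edited, 1 sample each, were compared without a test. No member differed 2-fold or more in both dye orientations, against 249 of 20337 genes higher in Edited (1.22%) and 35 lower (0.172%). The member median of Edited minus Non-edited was -0.048, against -0.027 over all genes, with 36 members higher and 42 lower. The highest were Sdhd at 0.64 (0.56 with the samples in Cy5 and 0.73 in Cy3), Ndufa4 at 0.51 (0.69 and 0.34) and Cox6c at 0.50 (0.60 and 0.40). The lowest were Ndufa9 at -0.45 (-0.44 and -0.46), Atp5b at -0.45 (-0.15 and -0.74) and Cox5b at -0.44 (0.19 and -1.08). The 2 dye orientations of Cox5b, a zinc-binding subunit of complex IV, pointed in opposite directions.

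**Figure D4:**
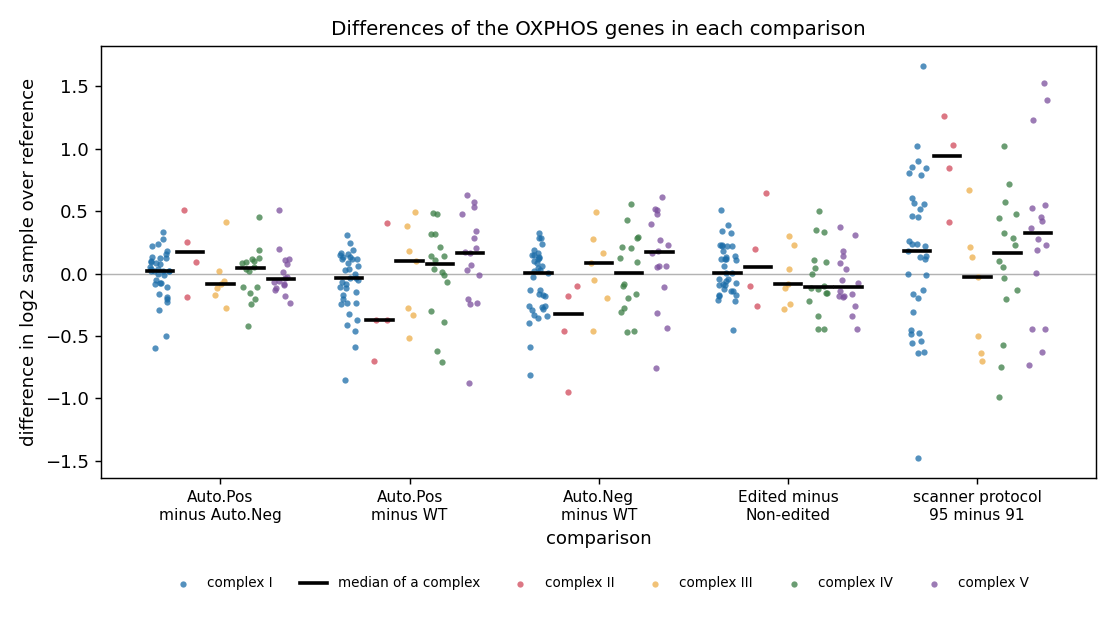
Each point is the difference in log2 ratio of 1 OXPHOS gene in 1 comparison, coloured by complex, and each black line is the median of a complex. In the 4 comparisons of B cell groups no complex median lies further from 0 than 0.17 except those of complex II against WT (-0.37 and -0.32), and the differences between scanner protocols spread more widely, from -1.48 to 1.67.

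The scanner protocol went with larger differences in OXPHOS genes than group did, with a median size of 0.467 against 0.111 to 0.211 in the 3 replicated comparisons. Protocol 95 was compared with protocol 91 in the 6 replicated samples, 3 of each, with group as a term; this comparison was added after seeing the data. No member and no gene passed a limma adjusted p of 0.05 (0%). At an adjusted p under 0.1 there were 17 members (21.8%), against 1856 genes (9.07%). That count was 0 without any 1 Auto.Neg or Auto.Pos sample and with the scanner's log ratio, and 51 without either WT sample. At an unadjusted p under 0.05 there were 43 members (55.1%), against 25.6% of all genes; without 1 sample that count was 15 to 51. The protocol 95 samples were all above the protocol 91 samples in 28 members (35.9%; all genes 10.7%) and all below in 15 (19.2%; all genes 20.4%). With Non-edited and Edited, which were not in that fit, placed beside the other protocol 95 samples, 26 of the 28 and 12 of the 15 kept their side in all 8 samples, as did 1741 of 2198 and 3390 of 4181 over all genes. Both shared scan day 4 with Auto.Neg sample 1, which was in the fit, so they are not separate support. The protocol difference was larger than each of the 3 group differences in 49 members (62.8%; all genes 48%). Protocol moves with slide and scan day, which cannot be told apart from it here, and whether the samples themselves differed between these runs was not tested.

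By complex, the median of protocol 95 minus 91 was 0.94 for II, 0.32 for V, 0.18 for I, 0.16 for IV and -0.028 for III, against 0.22 over the members and -0.090 over all genes. With scale normalization between arrays the median over the members turned to -0.055, so the sign of the whole list depended on the scaling. The genes named next kept their sign under each normalization tried on the scanner files, except that Atp5g1 was not recomputed. Ndufa11, an accessory membrane subunit of complex I, read -1.55 (Auto.Neg sample 2), -1.36 (Auto.Pos sample 1) and -1.56 (WT sample 1) at protocol 91 and 0.26 (Auto.Neg sample 1), 0.22 (Auto.Pos sample 2), 0.050 (WT sample 2), 0.073 (Non-edited) and 0.032 (Edited) at protocol 95. The protocols did not overlap, with a difference of 1.67 (SE 0.135, limma adjusted p = 0.0741), and a second probe gave 1.70. Atp5k differed by 1.52 (SE 0.164, limma adjusted p = 0.0741), Atp5l by 1.39 (SE 0.218, limma adjusted p = 0.079), Sdhb by 1.26 (SE 0.278, limma adjusted p = 0.0995) and Atp5g1 by 1.23 (SE 0.166, limma adjusted p = 0.0741). In the other direction, Ndufa8, an intermembrane-space subunit of complex I, read -0.20 (Auto.Neg sample 2), -0.45 (Auto.Pos sample 1) and -0.71 (WT sample 1) at protocol 91 and -2.02 (Auto.Neg sample 1), -1.94 (Auto.Pos sample 2), -1.84 (WT sample 2), -2.07 (Non-edited) and -1.95 (Edited) at protocol 95, again without overlap, a difference of -1.48 (SE 0.184, limma adjusted p = 0.0741). Cox7c differed by -0.99 (SE 0.253, limma adjusted p = 0.117), Cox6c by -0.75 (SE 0.182, limma adjusted p = 0.11) and Atp5o, the oligomycin sensitivity protein of ATP synthase, by -0.73 (SE 0.148, limma adjusted p = 0.0921).

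The protocol difference can be followed in each colour channel, relative to the median of each array. The sample channel of the members was higher at protocol 95 by a median of 0.55 and the reference channel by 0.36, against 0.092 and 0.13 over all genes. In complex II the sample channel was higher by 0.31 and the reference channel lower, at -0.43. For Ndufa8 the sample channel differed by 0.71 and the reference channel by 2.15. Cox7c gave 1.38 and 2.33. For Ndufa11 the channels differed by 1.40 and -0.31, and for Sdhb by 1.30 and 0.0051. The reference RNA, a pool described alike for every array, thus read differently between protocols for Ndufa8 and Cox7c, and nearly alike for Sdhb.

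The protocol difference also moved with the base content of the probes shown above. Across the 78 members, its Pearson correlation with the percentage of G and C was 0.448 (Spearman 0.344), against 0.211 (0.193) across all genes; these are across genes, which share the arrays. In 12 members with probes of up to 35% G and C the median of protocol 95 minus 91 was -0.38, in 44 of 35 to 50% it was 0.18, and in 22 above 50% it was 0.37. The same bins over all genes gave -0.22, -0.079 and -0.032. Probes of 9 members hold AATAAA, the polyadenylation signal, and gave a median of -0.16, against 0.24 for the other 69. In 18 members with probes at least 200 bases apart by genome coordinates, the probe nearer the 5′ end gave the higher protocol difference in 12. The median difference between the probes over all 18 was 0.39. Over 5521 genes the 5′ probe was higher in 52.3%, with a median of 0.041. These distances include introns, so a probe that spans an intron can count as distant, as for Ndufs6, whose probes overlap. In 24 genes with GCNTGCGC in the promoter window the median protocol difference was 0.39, and in 40 without it 0.20. The medians with and without it were 0.12 and 0.0028 for Auto.Pos minus WT. They were 0.022 and 0.028 for Auto.Pos minus Auto.Neg, and 0.035 and 0.035 for Auto.Neg minus WT. What part probe content has in the protocol difference was not tested.

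**Figure D5:**
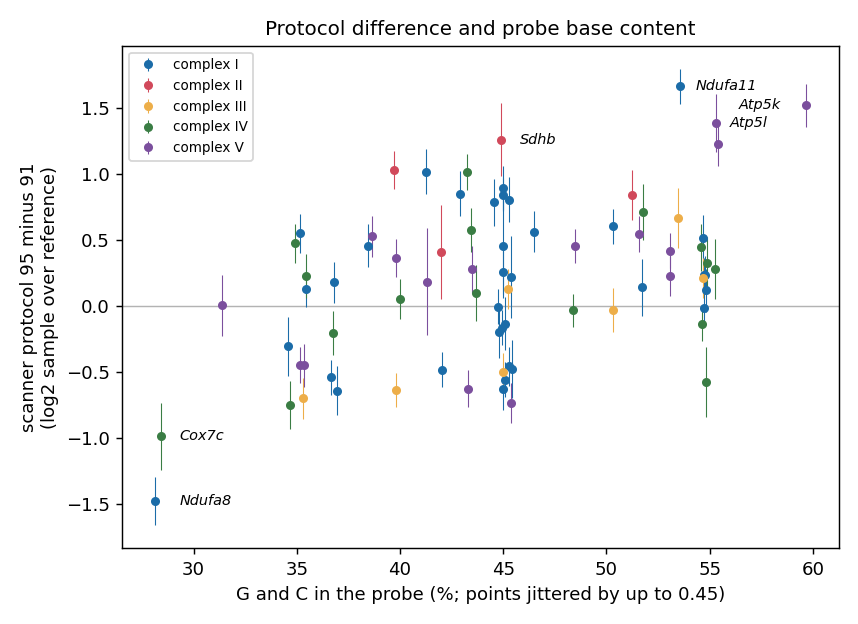
Each point is 1 OXPHOS gene: the x axis is the percentage of G and C in its probe (points shifted sideways by up to 0.45 to separate them), the y axis the difference between scanner protocols 95 and 91 in log2 ratio, and bars are standard errors from limma. Ndufa8 and Cox7c, with 28.3% G and C, have the lowest differences, and Ndufa11 and Atp5k, with 53.3% and 60%, the highest.

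Other mitochondrial genes were read from lists. No gene of these lists was called in the 3 replicated comparisons, in which 0.0147%, 0% and 0% of all genes were. Of 17 citric acid cycle genes, 3 were higher and 14 lower in Auto.Pos than in WT (median -0.15), and 4 were higher and 13 lower in Auto.Neg than in WT (-0.13). Citrate synthase (Cs), which opens the cycle, differed from WT by -0.65 (Auto.Pos) and -0.39 (Auto.Neg). Of 8 genes of mitochondrial peroxide and superoxide defence, 7 were lower than WT in each of the 2 groups. Over all genes, 12286 were higher and 8170 lower in Auto.Pos than in WT, and 11786 higher and 8670 lower in Auto.Neg. Both comparisons share the WT samples, so the second is not separate support. The 40 measured assembly factors had medians of 0.016, 0.040 and 0.044 in Auto.Pos minus Auto.Neg, Auto.Pos minus WT and Auto.Neg minus WT. The 78 measured mitochondrial ribosomal proteins had 0.022, 0.026 and 0.059. Like the OXPHOS genes, the mitochondrial ribosomal proteins were below the reference, with sample medians of -0.96 to -0.79, while the 77 cytosolic ribosomal proteins were above it, at 0.54 to 1.08.

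Among the regulators, Nrf1 differed by -0.23, -0.26 and -0.031 in those 3 comparisons, Gabpa by 0.079, 0.37 and 0.29, and Yy1 by 0.40, 0.45 and 0.057. Ppargc1a, a coactivator of mitochondrial biogenesis, read -0.72 and 1.86 (Auto.Neg), 2.29 and 0.51 (Auto.Pos) and 2.13 and 1.44 (WT), with the protocol 91 sample higher in each group. Of the electron carriers outside the name rule, cytochrome c (Cycs) ranged from -2.83 to -2.48 over the 8 samples. Cytochrome c1 (Cyc1) ranged from -2.73 to -1.27, lowest in the pair on slide 2. Ndufab1, the acyl carrier protein within complex I, ranged from -2.63 to -1.75.

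Markers of other cells differed between the same groups. All 6 measured macrophage and monocyte markers were lower than WT in Auto.Pos (median -0.51) and in Auto.Neg (-0.64), with sample medians of 2.68 and 2.66 (WT), 2.81 and 1.46 (Auto.Pos) and 1.20 and 2.54 (Auto.Neg). All 5 measured erythroid markers were lower in Auto.Pos than in WT (-0.58), and 3 of 5 were lower in Auto.Neg than in WT. All 6 plasma cell markers were lower in Auto.Pos than in WT (-0.61), and the 5 platelet markers were higher in Auto.Pos than in Auto.Neg (1.42), with sample 1 of Auto.Pos highest for Pf4 (0.67). Neutrophil markers (6 measured) had medians of -0.21 and -0.52 against WT. The macrophage and the erythroid lists were both lower at protocol 95 than at 91, by medians of -0.85 each. None of these markers was called, and their part in the OXPHOS values was not tested.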

How the data were processed

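RNA (100 ng a sample) was amplified and hybridised with dye swap against the reference, per the labels' protocols. Spot intensities on a linear scale and their log10 ratios were written by Agilent Feature Extraction 9.1.1.1, 9.1.3.1 or 9.5.1.1, per the file headers, and the authors' series table holds log2 ratios whose scale and centring the sources used here do not state; limma is named without a version in the submitters' processing notes. From the intensities, normexp background correction (offset 50), loess within each array (control spots at weight 0) and limma 3.58.1 (R 4.3.3) were run here. Ratios were turned to sample over reference by the dye labels and the 2 arrays of a sample averaged. Of 41174 probes, 29618 were well above background in the sample channel on both arrays of at least 2 samples. Probes were named through RefSeq tables (22951 by accession, 6659 by symbol, 3109 by synonym) and otherwise by the file's name (8455), and the brightest kept probe stood for each of 20456 genes. One mean per group was fitted over all 8 samples (residual df 3), with Benjamini-Hochberg adjustment over all genes and calls at adjusted p under 0.05. The steps were tested on simulated data.

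Replicate numbers were not taken as pairs in the main fit. Deviations of same-numbered samples correlated across genes at -0.788 (Auto.Neg and Auto.Pos), -0.279 (Auto.Neg and WT) and 0.252 (Auto.Pos and WT). Sample 1 was read with protocol 95 in Auto.Neg and with protocol 91 in Auto.Pos and WT. These correlations therefore cannot show whether the numbers mark pairs. The series table was not the main source because only 6 of its 16 columns correlated best with their own array. It held 0 columns of no sample. Array intensities carry no count, so no counting interval is given; each replicated group has 2 samples. The members, gene lists and motif spellings were chosen with earlier results of these data known. Genes were named where called, where they were the 3 highest or 3 lowest non-overlapping members of a comparison (or the 3 highest and lowest for Edited minus Non-edited), or where they were fixed core subunits and paralogue sets; others are given for contrast, and 1 member is not reported by name. Alternatives covered the probe filter, normalization, source table, probe per gene, membership, left-out samples and batch.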

Additional observations from a re-analysis of the deposited data

How the results depend on the processing

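No OXPHOS member was called in the 3 replicated comparisons under any probe filter, normalization, probe rule or membership tried on the scanner files, nor without any 1 of the 6 replicated samples. Read by its labels, the series table gave 41 called members and a median of -1.02 for Auto.Pos minus Auto.Neg, 37 and 0.79 for Auto.Neg minus WT, and 0 for Auto.Pos minus WT; in that table the 2 columns of each Auto.Neg sample correlated at -0.973 and -0.975. Over all genes it called 7700, 0 and 6960 (Auto.Pos minus Auto.Neg, Auto.Pos minus WT, Auto.Neg minus WT), against 3, 0 and 0 as reported; no filter on dim probes called none, median centring 1, 0 and 0, scale normalization 0, 6 and 0, the scanner's log ratio 3, 15 and 0, and the protocol block 6, 0 and 0. With the protocol block, 0, 6 and 5 members had an unadjusted limma p under 0.05, against 555, 2199 and 2021 genes, and no member was called. Scan day as a random block, added after seeing the data, called 39, 4183 and 464 genes, among them 0, 13 and 0 members, and the cause was not tested. Member medians of the 3 comparisons moved by less than the spread between samples of a group (SD 0.235) in every other setting run but changed sign in some: median centring gave -0.11, -0.14 and -0.036, against 0.064, 0.24 and 0.16 with scale normalization; under centring the all-gene median moved from 0.065 to -0.057 in Auto.Pos minus WT. Leaving out 1 sample gave -0.10 to 0.075, -0.13 to 0.056 and -0.17 to 0.069. With sample number as a replicate block, 0 members and 0 genes were called, with medians of 0.020, 0.031 and 0.035. Edited minus Non-edited gave 0 members 2-fold apart in every setting run, and a median of 0.11 from Cy5 alone and -0.12 from Cy3 alone. The protocol difference had a member median of -0.055 under scale normalization. It gave 0 members at adjusted p under 0.1 with the scanner's log ratio, and 0 at either threshold with the series table. Leaving out 1 sample gave 15 to 51 members at unadjusted p under 0.05 and 0 to 51 at adjusted p under 0.1 (0 without any 1 Auto.Neg or Auto.Pos sample, 51 without either WT sample), with medians of 0.12 to 0.26. Among 26 named differences, the sign changed in 7 with the series table and in 2 with the mean of all kept probes (Cox5a, Auto.Pos minus Auto.Neg, -0.18; Atp5b, Auto.Pos minus WT, -0.24). Slide as a random block could not be fitted, because only slide 2 held more than 1 sample.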
